A study of Mus musculus with 2 samples.

Results

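The translation initiation factor genes of mouse gastrocnemius, the large calf muscle, were taken as the protein-coding genes whose symbol begins with Eif and a digit from 1 to 6, without Eif4ebp1. The rule was applied to the symbols of the transcript tables and found 54 genes, of 22028 protein-coding genes and 55536 Ensembl genes in the gene tables. It uses names alone and no measured value. The name does not guarantee the function: Eif4a3 works mainly in the exon junction complex, Eif6 on the large ribosomal subunit, and the 4 Eif2ak genes encode kinases that act on an initiation factor.

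Total RNA was sequenced from 2 male B6CASTF1/J mice, F1 animals of a cross between C57BL/6 and CAST, at 36 days of age. Each library started from 300 ng of RNA, carried ERCC spike-in RNAs, and was stranded and reduced in ribosomal RNA, per the labels. The mice are untreated as far as the labels say, and they form 1 group (n = 2), so there is no contrast between conditions and no p-value. Both carry the same donor entry although each is a biosample of its own. They are called 2 animals below on the biosample labels alone, and the spread between them may be partly or wholly technical.

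Initiation starts when eIF2 with GTP brings the initiator methionyl tRNA to the small ribosomal subunit, together with eIF1, eIF1A, eIF5 and the large scaffold eIF3. The cap complex, in which eIF4E binds the cap, eIF4G bridges to eIF3 and the helicase eIF4A unwinds the leader, loads this assembly onto the messenger RNA, and it scans to a start codon. eIF2B recharges eIF2 with GTP afterwards, and phosphorylation of eIF2 by stress kinases blocks that step. In muscle, binding proteins of eIF4E under the control of mTOR and the eIF2B step are known points at which feeding, insulin and contraction act on protein synthesis.

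Initiation factors choose start codons, and their own messenger RNAs carry different ones. The contexts were read from the GENCODE M21 transcript sequences (mm10), from the leading complete protein-coding transcript of each gene. Of the 54 genes, 50 had such a transcript at a mean of 1 TPM or more with at least 9 bases before the start. TPM is a transcript's relative level, scaled by its length. The runs below give 9 bases before the start codon, the start codon in capitals and 4 bases after it, 5′ to 3′. The first pair is shown for Eif1 and its close relative Eif1b, and the third because it is the only gene of the 50 without an ATG start. The next 7 share 8 letters over the start, and the last 3 are the paralogous eIF4A genes.
Eif1: tcgtatcgtATGtccg
Eif1b: tagtgtcgcATGtcca
Eif4g2: gccgccaaaGTGgaga
Eif2s3x: ccgagcaagATGgctg
Eif2s3y: gtgagcaagATGgcgg
Eif2a: cgggacaagATGgcgc
Eif2b5: cgaagcaagATGgcag
Eif3d: ttttagaagATGgcga
Eif3e: cccggcaagATGgcgg
Eif3f: ctcggcaagATGgctt
Eif4a1: ctaaggatcATGtctg
Eif4a2: tttcggatcATGtctg
Eif4a3: atccggatcATGgcgg

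A purine as the third base before the start codon and a G right after it are the features known to favour recognition. The purine was present in 42 of the 50 genes (84%, against 86.9% of 8980 genes chosen in the same way) and the G in 24 (48%, against 52.5%). Both were present in 21 genes (42%, against 45.8%). Neither was present in 5 genes, namely Eif1, Eif1b, Eif2b4, Eif3b and Eif4g1 (10%, against 6.40%). The leading transcript was taken from the first of the 2 transcript tables. In the second table Eif2b4 and Eif4g1 had another leading coding transcript, whose context is not given here, so their place among the 5 rests on that choice. Eif1 and Eif1b encode the factor that guards against poor start sites, and a poor context in the eIF1 gene is a known feature of it. Eif4g2, also called DAP5, starts at GTG, which made it 1 of 12 genes of the 8980 with a start other than ATG (0.134%) and the only 1 with GTG. The 8 letters AAGATGGC over the start, chosen after the sequences were seen and searched on the transcript strand only, were present in 7 of the 50 (14%) and in 4.11% of the 8980. The leader before the start had a median of 122 bases in the 50 genes and 160 bases in all 8980. It was 30 bases or shorter in 4 genes (8%, against 4.71%), with 15 bases in Eif3f, 16 in Eif4a1, 19 in Eif4e3 and 27 in Eif3e. Such matches describe annotated letters and were not set against protein output, which was not measured.

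The 54 genes were detected broadly and at similar levels in both mice. Together they held 2256 TPM in the first mouse (replicate 1) and 2286 TPM in the other (replicate 2), or 2271 ± 21.6 TPM (SD, n = 2). Of the 54 genes, 51 stood at 1 TPM or more in both animals. The median gene stood at 21.4 TPM, 38 genes had a mean between 10 and 60 TPM, and 5 had more than 100 TPM. The 3 with the highest levels, Eif1, Eif4g2 and Eif5a, held 35.2% of the summed level. When the genes were ordered by their mean, the ranges of the 2 animals overlapped in 31 of 53 neighbouring pairs, so the order is resolved only in part.

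**Figure D1:**
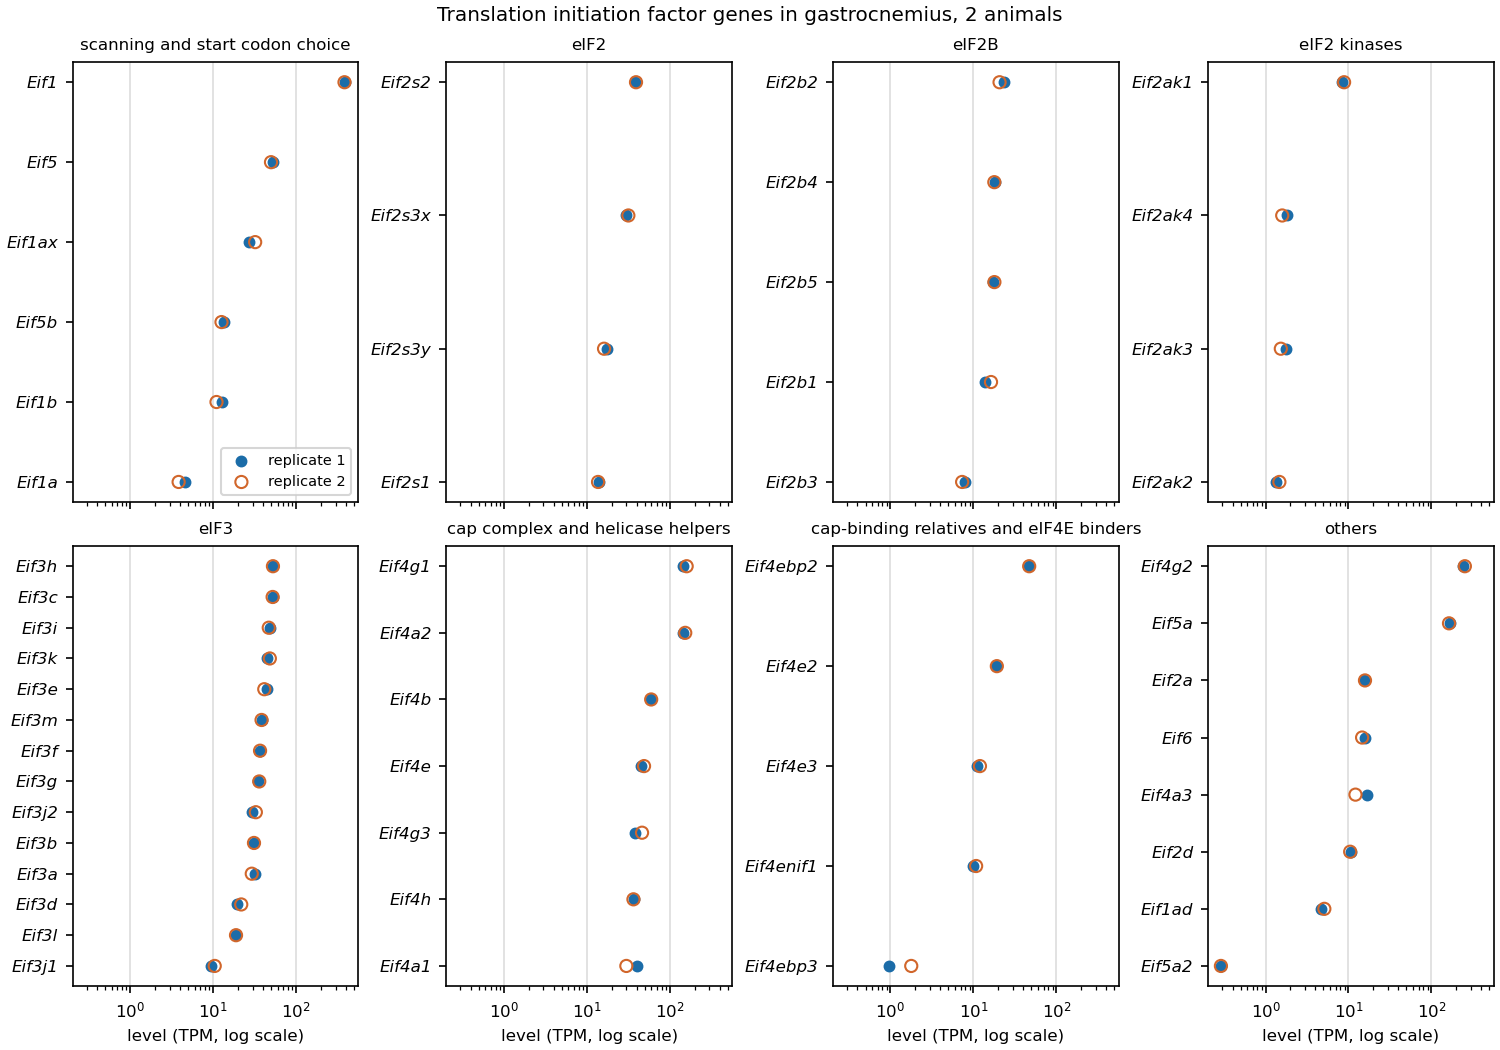
Level of each initiation factor gene in TPM (log axis) in replicate 1 (filled points) and replicate 2 (open points), in 8 panels by role. Eif4e1b, listed at 0 in both animals, is not drawn, and the levels run from 0.29 TPM for Eif5a2 to 394 TPM for Eif1 in replicate 1.

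The libraries held 36952277 and 38754338 expected counts in replicates 1 and 2, of which the 54 genes took 0.397% and 0.388%. Muscle fibre markers, read as a check of the labelled tissue, summed to 86092 and 90781 TPM, and no marker of any list was at 0. Markers of other cells differed between the animals. All 6 Schwann cell markers were lower in replicate 2 (summed 362 and 79.4 TPM, 5 past the 2-fold rule used for the comparison of the animals), as were all 6 fibroblast markers (1737 and 901 TPM, 2 past it) and all 5 tendon cell markers (138 and 94.6 TPM, 2 past it). Macrophage markers summed to 26.7 and 16.3 TPM, endothelial markers to 40.7 and 42.2 TPM, and adipocyte markers to 25.7 and 43.9 TPM. The part of these cells in the differences given below was not tested, and in bulk tissue fewer cells of a type and less RNA per cell cannot be told apart. The 7SL RNAs took 32.8% and 29.0% of all TPM, which lowers every other TPM value by a different share in each animal.

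Among the factors of scanning and start codon choice, Eif1 had the highest gene level of the whole set. Eif1 (chromosome 11, 100319885-100322096, mm10) stood at 394 and 384 TPM in replicates 1 and 2, the order in which values are given below. A 383-base processed transcript without a coding sequence, Eif1-202, carried 219 and 207 TPM of this. It held 23.8% and 22.4% of the gene's expected counts but 55.6% and 54.0% of its TPM. Counted over protein-coding transcripts only, Eif1 stood at 159 and 165 TPM and ranked 3, behind Eif4g2 with 208 TPM in each animal and Eif5a with 169 and 163 TPM. Eif1b, which encodes a near-identical protein, stood at 12.69 and 10.99 TPM, 5.03 ± 0.12 below Eif1 on the log2 scale, or 3.76 over coding transcripts. Its whole level lay in coding transcripts.

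The eIF1A protein, which works beside eIF1 in the scanning complex, is encoded by Eif1ax on chromosome X (159372178-159389928) and by Eif1a. Eif1ax stood at 27.4 and 32.1 TPM and Eif1a at 4.64 and 3.84 TPM. A 416-base retained-intron transcript with 121 and 166 expected counts gave Eif1ax 12.04 and 16.50 of these TPM. Its coding transcript stood at 15.3 and 15.6 TPM, so the animals differed less there than at the gene level. Eif5, the GTPase activator of eIF2, had 52.3 and 49.9 TPM. Eif5b, the GTPase that joins the ribosomal subunits, had 13.5 and 12.6 TPM, of which 6.82 and 7.81 TPM lay in its coding transcript. In the 2 animals these 6 genes summed to 504 and 493 TPM.

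The 3 subunits of eIF2 were not at equal levels. Eif2s1, the alpha subunit that the stress kinases phosphorylate (chromosome 12, 78861819-78887010), was the lowest at 13.9 and 13.7 TPM. Eif2s2, the beta subunit, had 38.1 and 39.3 TPM. The gamma subunit, which holds GTP and the initiator tRNA, is encoded by Eif2s3x on chromosome X (94188707-94212862) and Eif2s3y on chromosome Y (1010543-1028847). Eif2s3x stood at 29.99 and 31.74 TPM and Eif2s3y at 17.4 and 16.2 TPM, so the Y copy was below the X copy in both males, with a log2 ratio of X over Y of 0.88 ± 0.13. In F1 males the X and Y copies come from different parent strains, and the part of strain in this ratio was not tested. The gamma pair summed exceeded Eif2s1 3.41-fold in replicate 1 and 3.50-fold in replicate 2. In coding transcripts alone, Eif2s1 had 6.92 and 7.75 TPM and that ratio was 5.69 and 5.39. Eif2s1 was the lowest and the gamma pair the highest in both animals by gene, by coding transcripts and in the second transcript table.

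Of the 5 subunits of eIF2B, the exchange factor that reloads eIF2, Eif2b3 was lowest at 7.95 and 7.31 TPM. The highest by gene was Eif2b2 at 23.6 and 20.7 TPM, which put the spread at 2.96-fold and 2.83-fold. The catalytic subunit Eif2b5 had 17.5 and 17.9 TPM, Eif2b4 18.2 and 17.9 TPM, and Eif2b1 13.7 and 16.3 TPM. Which subunit was highest depended on the transcripts counted: Eif2b5 led over coding transcripts and Eif2b1 led in the second transcript table. Eif2b3 remained the lowest in all of these.

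The 4 eIF2 kinases were low and led by Eif2ak1. Eif2ak1, the heme-regulated kinase HRI, stood at 8.43 and 8.86 TPM. Eif2ak2, the kinase PKR that senses double-stranded RNA, had 1.34 and 1.47 TPM. Eif2ak3, the endoplasmic reticulum kinase PERK, had 1.78 and 1.53 TPM. Eif2ak4, the kinase GCN2 that senses uncharged tRNA, had 1.83 and 1.59 TPM. On the log2(TPM + 0.1) scale Eif2ak1 exceeded Eif2ak2 by 2.54 ± 0.04, Eif2ak3 by 2.32 ± 0.20 and Eif2ak4 by 2.28 ± 0.19. The ranges of Eif2ak3 and Eif2ak4 overlapped, and Eif2ak2 lay just below both. The second transcript table did not keep that order, with 2.49 and 2.66 TPM for Eif2ak2, 2.51 and 2.52 TPM for Eif2ak3 and 2.93 and 1.92 TPM for Eif2ak4.

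The 14 genes of eIF3, the scaffold that holds the small subunit and receives eIF4G, summed to 493 and 497 TPM. As 13 subunits, with Eif3j1 and Eif3j2 summed, their levels spanned 2.72-fold in replicate 1 and 2.79-fold in replicate 2, from Eif3l to Eif3h. Eif3h had 52.1 and 52.7 TPM, Eif3c had 52.1 and 52.2 TPM, and these did not differ beyond their spread. Eif3l, at 19.1 and 18.9 TPM, and Eif3d, which can itself bind some caps, at 19.6 and 21.8 TPM, were the lowest. Eif3a, the largest subunit, had 32.2 and 29.3 TPM and Eif3b had 30.7 and 31.1 TPM.

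The remaining eIF3 subunits lay between these when Eif3j1 and Eif3j2 were summed, at 39.2 and 43.2 TPM. Eif3i had 48.4 and 46.9 TPM, Eif3k 44.3 and 48.3 TPM, Eif3e 45.1 and 41.4 TPM, and Eif3m 38.6 and 38.4 TPM. Eif3f stood at 36.7 and 36.8 TPM and Eif3g at 34.6 and 36.0 TPM. Eif3j2 was higher than Eif3j1 in both animals, with 29.7 and 32.8 TPM against 9.51 and 10.5 TPM. Their expected counts were closer, at 2136 and 2367 against 1547 and 1682. The transcript of Eif3j2 is annotated with 1 exon and 2379 bases, and the coding transcript of Eif3j1 with 8 exons and 5413 bases. Both genes had counts that were not whole, so reads were shared between near-identical sequences and the split of this pair is uncertain.

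**Figure D2:**
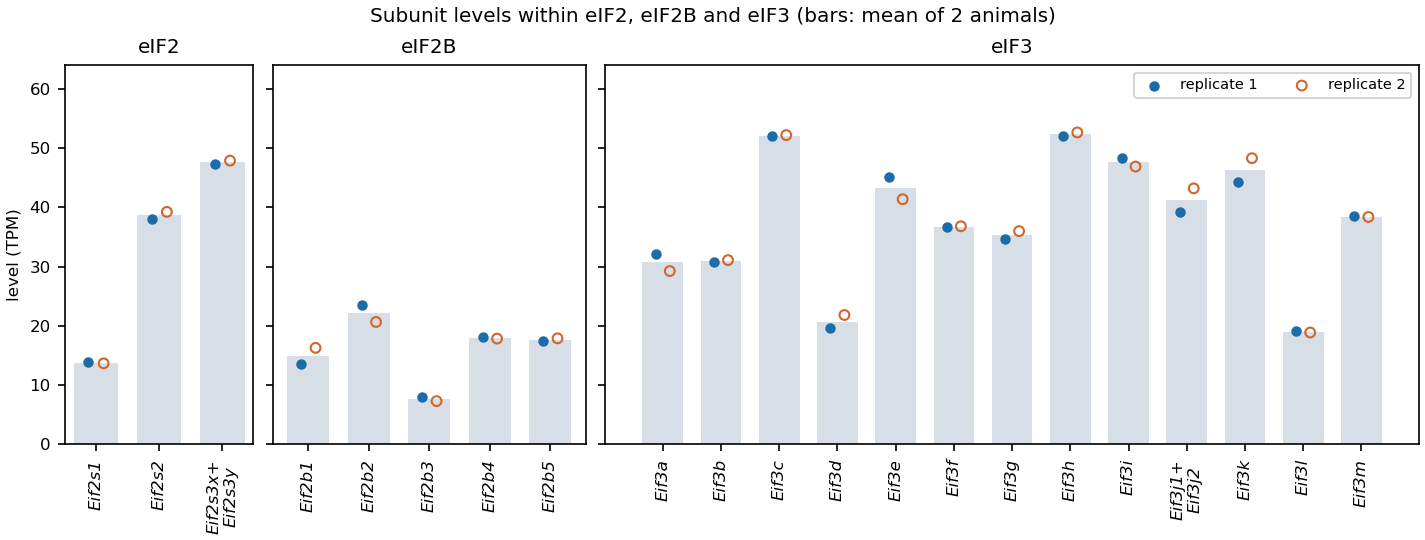
Level in TPM of the 3 eIF2, 5 eIF2B and 13 eIF3 subunits, with bars for the mean and points for replicate 1 (filled) and replicate 2 (open). Eif2s1, Eif2b3 and Eif3l are the lowest subunits of their complexes in both animals.

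In the cap complex the leading scaffold and helicase genes, Eif4g1 and Eif4a2, stood above the cap-binding gene Eif4e. Eif4g1, the main scaffold (chromosome 16, 20668313-20692884), had 146 and 160 TPM. Eif4g3, a second scaffold of the same kind, had 37.9 and 46.4 TPM. Eif4e, the cap-binding protein, had 44.6 and 49.0 TPM. On the log2 scale Eif4g1 exceeded Eif4g3 by 1.86 ± 0.11, and this was 1.77 over coding transcripts.

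The 2 eIF4A helicase genes were unequal, with Eif4a2 above Eif4a1. Eif4a2 (chromosome 16, 23107444-23114136) stood at 144 and 154 TPM. Eif4a1 (chromosome 11, 69666936-69672423) stood at 40.08 and 30.02 TPM. The log2 ratio was 1.84 in replicate 1 and 2.35 in replicate 2. It was 1.27 and 1.46 in the second transcript table, and 1.23 as the mean over coding transcripts, so the direction held while the size depended on the transcripts counted. The helpers Eif4b and Eif4h, which stimulate the helicase, had 59.5 and 59.8 TPM and 36.9 and 36.5 TPM.

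Cap-binding relatives and binders of eIF4E were lower than Eif4e by gene level, apart from Eif4ebp2. Eif4ebp2, an mTOR-controlled inhibitor that keeps eIF4E from eIF4G, had 46.9 and 47.0 TPM, within the range of Eif4e. In the second transcript table it was below Eif4e, with 57.2 and 50.8 TPM against 83.4 and 87.7 TPM. Eif4e2, a cap-binding protein that represses translation, had 18.5 and 19.2 TPM. Eif4e3 had 10.96 and 11.99 TPM, and Eif4enif1, which carries eIF4E into the nucleus and into granules, had 9.78 and 10.8 TPM. Eif4e exceeded Eif4e2 by 1.31 ± 0.06 and Eif4e3 by 2.02 ± 0.01 on the log2 scale. The 729-base coding transcript Eif4e-205 carried 47.7% and 50.8% of the Eif4e TPM but 23.2% and 25.0% of its expected counts. The 4991-base Eif4e-201 held 59.4% and 57.3% of the counts but 7.01 and 7.34 TPM, which is below Eif4e3. The comparisons of Eif4e with Eif4ebp2, Eif4e2 and Eif4e3 thus depend on how reads were assigned to these forms.

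Among the lowest genes of the set, 2 are in this role and Eif5a2 is a relative of Eif5a. Eif4ebp3 had 0.97 and 1.78 TPM from only 19.7 and 36.4 expected counts. Eif4e1b, known from oocytes, was at 0 counts in both animals, and a count of 0 allows up to 3 reads, or 0.0812 and 0.0774 CPM (counts scaled to the library total). Eif5a2 had 45 expected counts and 0.29 TPM in each animal.

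The other factors held a pair of abundant genes and several low ones. Eif4g2 (chromosome 7, 111067750-111083030) is a relative of eIF4G that lacks the binding site for eIF4E, and stood at 238 and 253 TPM. Its level exceeded that of Eif4g1 by 0.68 ± 0.03 on the log2 scale. Eif5a (chromosome 11, 69916714-69921958), which carries hypusine and helps ribosomes through difficult stretches, had 169 and 163 TPM. Eif5a2 was 8.73 ± 0.03 below it on the log2(TPM + 0.1) scale.

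Eif2a, a protein that can bring initiator tRNA without eIF2, had 15.3 and 15.8 TPM. Eif2d, which acts on ribosomes after termination, had 10.9 and 10.5 TPM. Eif6, which keeps the subunits apart, had 15.8 and 14.6 TPM, Eif4a3 had 16.5 and 12.2 TPM, and Eif1ad had 4.62 and 5.12 TPM. Of the 15 pairs of related genes that were compared, 13 had the first gene above the second in both animals, in the gene table, in the second transcript table and over coding transcripts. Which gene came first was set by hand, so the count shows only that directions held, while the sizes of ratios differed between the tables.

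**Figure D3:**
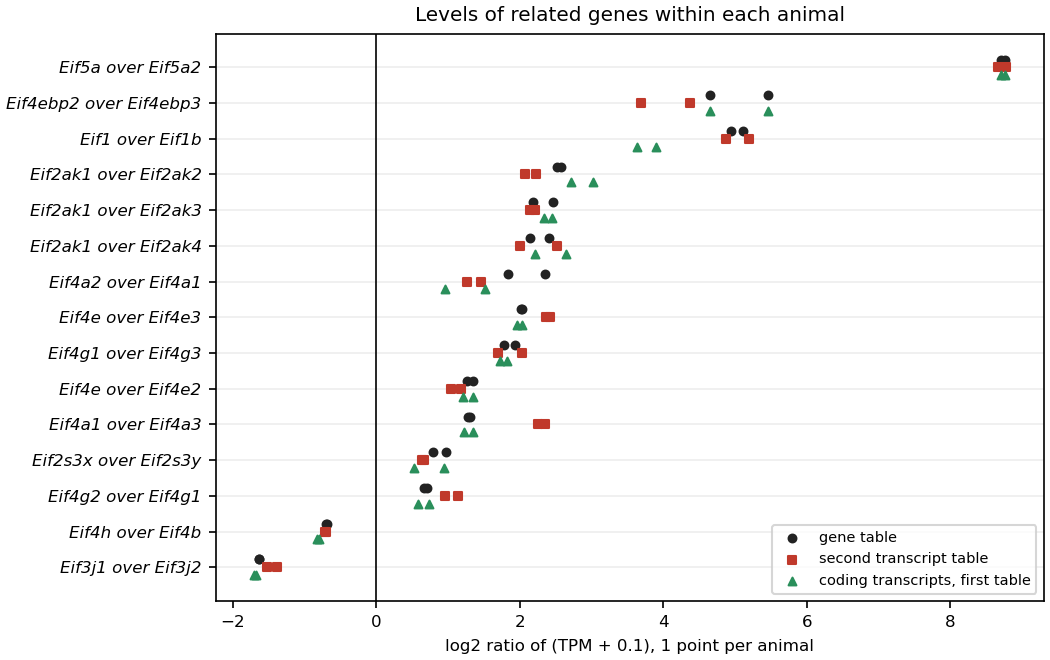
Log2 ratio of the first gene over the second for 15 pairs of related genes, on the log2(TPM + 0.1) scale, with 1 point per animal. Circles are the gene table, squares the second transcript table and triangles the coding transcripts of the first table; 13 pairs lie above 0 and 2 below 0 with every set of values.

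How far the animals differed was read with a fixed rule, since 1 animal on each side allows no test. A gene entered with a mean of 50 or more expected counts, and called when its level differed at least 2-fold on the log2(TPM + 0.1) scale and the deposited credibility intervals of TPM did not overlap. Of the 51 initiation factor genes tested, 0 were called, where 2.21% of all 11632 genes tested were called. That share is too small for a set of 51 with 0 calls to stand apart. At 1.5-fold the count was again 0 of 51, against 6.43% of all genes. With no demand on the fold, intervals did not overlap for 5 of the 51 genes (9.80%), against 18.9% of all genes. Eif5a2, Eif4ebp3 and Eif4e1b were below the count limit.

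The 5 genes with separate intervals differed by small amounts. Eif4a1, with 1879 and 1461 expected counts, was the only 1 of them past 1.2-fold downward: it was lower in replicate 2 by 0.42 on the log2 scale (intervals 37.4 to 44.8 TPM and 28.5 to 35.0 TPM). Eif3a was lower in replicate 2 as well, with a log2 ratio of -0.14. Eif4g3 was higher in replicate 2 by 0.29 on the log2 scale, with 5579 and 6355 expected counts. Eif4g1 and Eif4a2 were higher by 0.14 and 0.10.

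Signs depended on the table for Eif4g1 and Eif4a2. In the second transcript table, whose median over all genes lay at -0.11, Eif4g1 had a log2 ratio of -0.08 and Eif4a2 one of -0.20, while Eif4a1 had -0.39 and Eif4g3 0.26. By gene level Eif4a3 had the lowest ratio of the set, -0.44, from 565 and 474 expected counts. Its intervals of 14.17 to 19.38 TPM and 10.996 to 14.94 TPM overlapped. In the second transcript table Eif4a3 had -0.29, and Eif2ak4 was lowest at -0.58. Over coding transcripts Eif4a3 had -0.29, and Eif4a1 was lowest at -0.40.

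The whole set was centred near 0. The median log2 ratio of replicate 2 over replicate 1 was 0.01 over the 51 genes, with 28 higher and 23 lower, and 0.00 over all genes tested. The split followed the scaling: 17 were higher and 34 lower with TPM rescaled to nuclear protein-coding genes, and 10 were higher and 41 lower in the second transcript table. The median over all genes moved with it, to -0.06 and -0.11. Their median absolute log2 ratio was 0.10, against 0.18 over all genes, and 47 of 51 (92.2%) lay within 1.2-fold, against 64.6%. Depth differs between these lists, since the median expected count was 1349 for the 51 genes and 421 for all. Among genes with a mean count of at least 1000, the median absolute log2 ratio was 0.06 for 32 initiation factor genes and 0.14 for all 3123 genes, with 93.8% and 76.9% within 1.2-fold.

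**Figure D4:**
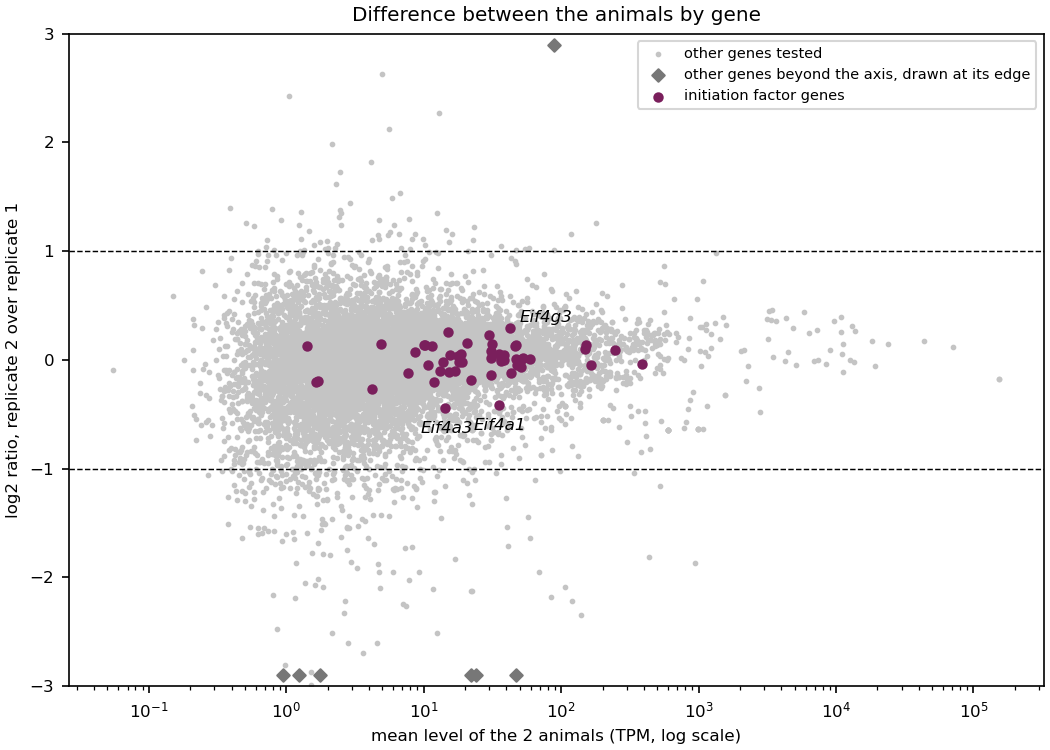
Log2 ratio of replicate 2 over replicate 1 against the mean level in TPM (log axis) for all 11632 genes tested, with the 51 initiation factor genes in purple 2-fold marked by dashed lines and genes beyond a log2 ratio of 3 drawn as diamonds at the edge. The purple points lie between -0.44 (Eif4a3) and 0.29 (Eif4g3).

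The levels were also summed by role. The eIF2 genes summed to 99.4 and 101 TPM, eIF2B to 80.78 and 80.03 TPM, and the kinases to 13.4 and 13.5 TPM. The cap complex and its helicase helpers summed to 508 and 536 TPM, with 5 of 7 genes higher in replicate 2. In the second transcript table that direction turned, with 906 and 834 TPM, while scanning and start codon choice had 817 and 744 TPM. The median log2 ratio over all genes tested was itself -0.11 in that table. The cap-binding relatives and binders summed to 87.1 and 90.7 TPM, and the other factors to 470 and 475 TPM.

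A gene's level need not lie in transcripts that encode protein. Among the 46 genes whose mean reached 5 TPM, the median share of TPM in protein-coding transcripts was 94.9%, against 93.7% over 6095 protein-coding genes at that level. The share was under 80% in 11 of the 46 genes, and in 27.6% of the 6095. By expected counts, which do not weight short transcripts up, only Eif1, Eif4a2 and Eif2a were under 80%, against 12.9% of the 6095. In the second transcript table the share was under 80% for 15 of the 46 genes and for 33.1% of 6081 genes, and 7 of the 46 were under it in both tables.

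For Eif1 the coding share was 40.3% and 42.9% of TPM in the 2 animals, but 75.1% of expected counts as the mean. Shares of Eif1ax and Eif2s1 turned on short transcripts with few reads. Eif1ax had 56.0% and 48.7%, and 100% in the second table, where its retained-intron transcript was listed at 0. Eif2s1 had 49.8% and 56.7%, against 87.5% and 99.3% in the second table.

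Other genes differed between the tables in the same or the opposite direction. Eif2b2 had 56.7% and 63.4%, Eif6 68.2% and 68.8%, Eif5 70.5% and 69.6%, and Eif2a 79.5% and 77.1% in the first table. In the second table Eif5 had 89.7% and 91.3%, and Eif2a had 97.8% and 98.7%. Eif5b had 50.4% and 61.8%, Eif4a3 74.3% and 82.7%, and Eif4a1 78.1% and 78.9%. Eif5b was lower in the second table, at 22.4% and 27.8%, and so was Eif4a1, at 20.02% and 18.91%.

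**Figure D5:**
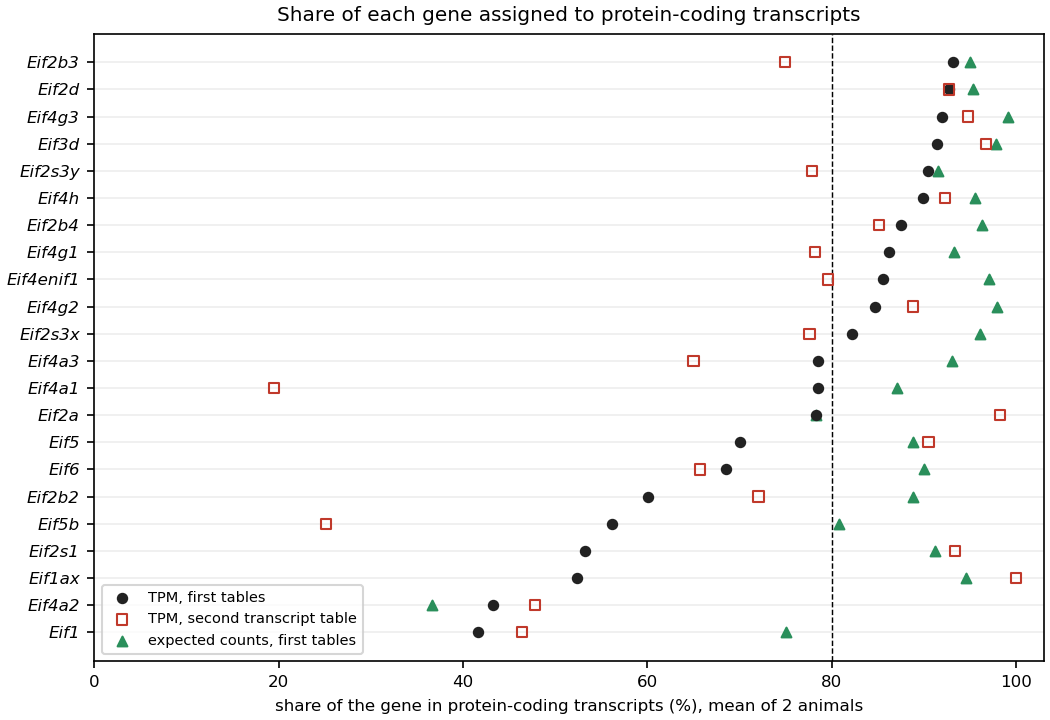
Share of each gene assigned to protein-coding transcripts (percent, mean of 2 animals), for the 22 genes with the lowest shares of TPM. Circles are TPM of the first tables, squares TPM of the second transcript table and triangles expected counts; the dashed line marks 80%, and by counts only Eif1, Eif4a2 and Eif2a lie under it.

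Eif4a2 had a low coding share by every measure. It was 42.4% and 44.0% of TPM in the first table, 47.8% as the mean in the second, and 36.6% of expected counts. In the first table the single largest form was Eif4a2-210, annotated as a target of nonsense-mediated decay, the pathway that removes messenger RNAs with an early stop. It held 44.0% and 41.6% of the gene's TPM from 3272 and 3324 expected counts. In the second table the same form held only 8.54% and 7.06%, so the low coding share was common to both tables while this form's part in it was not.

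Compared with the coding form Eif4a2-203, Eif4a2-210 leaves out exon 4 of 11, which lies at chr16:23109120-23109259 (mm10, plus strand). The exon has 140 bases, 2 more than a multiple of 3. It is shown because its loss sets the early stop, with capitals for the codons of the ATP-binding motif of the helicase, found by a search in the reading frame.
Eif4a2 exon 4: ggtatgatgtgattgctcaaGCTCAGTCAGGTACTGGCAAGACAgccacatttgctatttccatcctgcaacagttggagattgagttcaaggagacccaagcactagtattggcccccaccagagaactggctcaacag
The form with the exon has a reading frame of 408 codons and the form without it 97 codons. Its last bases, with the stop in capitals, are these.
Eif4a2-210 frame end: aaatgttcgaaaTGA
Downstream of that stop lie 6 exon junctions, the last of them 648 bases away. A premature stop ahead of exon junctions is the known mark of messenger RNAs that enter this decay pathway.

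Among coding transcripts alone, the leading form was compared with the rest. It held under 60% of the coding TPM in 9 of the 46 genes (19.6%), against 23.99% of 6091 protein-coding genes at that level. These were Eif5, Eif4g1, Eif4a2, Eif4g3, Eif4e, Eif4e2, Eif2b4, Eif5a and Eif4enif1. The leading coding form was the same in both tables for 40 of the 46 genes (87.0%, against 81.5%). For Eif5 it held 35.0% and 40.6%, and for Eif4g1 42.3% and 38.0%, and both genes had another leading form in the second table. For Eif5a the same form led in both tables, with 55.7% and 55.8% in the first and 31.4% and 31.1% in the second.

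Other genes of translational control, are given from a list of 24. All 24 were tested and 0 were called at 2-fold, against 2.21% of all genes, which is too small a share for a list of 24 to stand apart. In replicate 2, 15 were higher and 9 lower, with a median log2 ratio of 0.02, and 7 were higher and 17 lower in the second transcript table, with a median of -0.07. Pabpc4, a binding protein of the poly(A) tail that also contacts eIF4G, was highest at 117 and 128 TPM. Mknk2, a kinase of eIF4E, had 86.3 and 87.6 TPM, and its relative Mknk1 had 6.76 and 9.27 TPM.

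That list also holds regulators of eIF2 and eIF4E. Eif4ebp1, the inhibitor left out of the set by the rule, had 25.7 and 21.8 TPM, below Eif4ebp2 in both animals. Ppp1r15a, which directs the phosphatase to eIF2, had 6.94 and 9.30 TPM, and Atf4, a transcription factor whose translation rises when eIF2 is phosphorylated, had 46.8 and 47.8 TPM. Impact, an inhibitor of GCN2 activation, had 6.04 and 4.32 TPM, and Gcn1, its activator, had 9.68 and 10.3 TPM. Dhps and Dohh, the enzymes that make the hypusine of eIF5A, had 7.44 and 7.38 TPM and 14.6 and 14.8 TPM.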

How the data were processed

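Each of the 2 libraries had a gene table and 2 transcript tables, made on mm10 with GENCODE M21 per the file headers and the notes deposited beside them. Aligner and quantifier: not given in the sources used here. In these tables the authors deposited expected counts, TPM values, the signal bounds of a credibility interval of TPM (its level is not stated) and the percent of a gene carried by each transcript, which was recomputed from transcript TPM and matched within 0.486 points. Of the second transcript table, which also holds estimated counts, the TPM values were used for comparison. Reads of the C57BL/6 and CAST alleles of autosomal genes are counted together.

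Genes were matched to M21 by versioned identifier, and transcript types and sequences came from it. The members, lists, role groups and thresholds were chosen with earlier results of these data known. All members were to be named with their values, and transcript forms by shares under 80% or leading forms under 60%. Gcn1 was matched through a RefSeq synonym. Ratios used log2(TPM + 0.1), which understates ratios of low genes. Expected counts differed by more than sampling noise (chi-square of 44.3 per degree of freedom over all genes tested, 6.42 over members), so the libraries were kept as 2 replicates. With 2 animals the smallest two-sided exact p is 0.5. The call rule was run on simulated counts with sampling noise alone, which is less than these libraries hold, and without the deposited intervals. That run does not show how the rule performs on these data. Alternatives used edgeR 4.0.16 (TMM) and DESeq2 1.42.0 size factors on counts, Python 3.11.15 and pandas 2.3.3. Counts of 0 and their floors cover counting error only.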

Additional observations from a re-analysis of the deposited data

How the results depend on the processing

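Under every alternative 0 members were called, of 50 at a mean count of 200, 54 with no count filter and 51 otherwise. The count over all genes, 257 with the rule given above, became 748 at 1.5-fold, 394 with no count filter and 140 at a mean count of 200. It was 125 with a pseudocount of 1 TPM and 458 in the second transcript table without intervals. Of the 257 calls 20.2% were higher in replicate 2. The share was 13.4% of calls with TPM rescaled to nuclear protein-coding genes and 12.4% in the second table. The median log2 ratio of the members was -0.0949 in the second table, where the median of all genes was -0.11, and the difference of the medians stayed between -0.02 and 0.02 under each scaling. The summed level was 3620 TPM in the second table, 1798 TPM over protein-coding transcripts and 5510 TPM when rescaled to nuclear protein-coding genes. The spread within eIF2 was 5.43-fold in the second table and 5.54-fold over coding transcripts, that within eIF2B was 2.49-fold over coding transcripts, and that within eIF3 was 3.17-fold in the second table. By expected counts 3 genes had a coding share under 80%, in place of 11. The alternatives over protein-coding transcripts and by expected counts were chosen after seeing the data. The cause of these shifts was not tested.

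Left with either animal alone, the summed level was 2256 to 2286 TPM, the spread 3.41 to 3.50 within eIF2, 2.83 to 2.96 within eIF2B and 2.72 to 2.79 within eIF3, the count of pairs with the first gene higher was 13 each time, and 10 to 12 genes had a coding share under 80%. No paired analysis was possible because the series holds 1 group. Depth limits the genes under 50 counts, and the animals' spread rests on n = 2.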

Other observations

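Beside the protein-coding genes, 11 genes of other types carry names of this family, 10 of them processed pseudogenes, which are copies of a messenger RNA pasted back into the genome. Eif4a-ps4 on chromosome 1 stood apart among them, with 288 and 296 expected counts in replicates 1 and 2, or 8.15 and 8.35 TPM, and 23.7 and 19.7 TPM in the second transcript table. Its counts were not whole, so at least some of its reads were shared with another sequence. Eif1-ps1 had 1.05 and 0.93 TPM and was listed at 0 in the second table. The other 9 had at most 0.32 TPM in either animal. Of the 54 protein-coding genes, 18 had counts that were not whole and 36 had whole counts in both animals. Values in the second table were higher than in the first by a median of 1.46-fold over all genes and 1.48-fold over the 51 members with a mean of at least 50 expected counts. Relative to the median of all genes, 4 of these 51 moved by more than 1.5-fold.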
